A study of Rattus norvegicus with 8 samples.

Results

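The interferon response genes described here are 34 genes that interferons switch on, read from arrays of RNA from the middle of the colon of 16 female Wistar rats aged 6 weeks. Members were taken from a list of gene symbols with no threshold on a measured value: each probe was given a gene through its transcript accession, and the brightest probe of a gene was used. A probe was matched to 32 of the 34 genes, and all 32 were among the 19899 genes tested. Zbp1 and Xaf1 matched no probe by accession and were skipped. The 4 diet groups had 4 rats each. The REF group ate a standard diet, the C10 group a cocoa diet, the CF group a diet based on the fiber of cocoa and the I group a diet with inulin, a purified soluble fiber. Comparing C10 with CF asks what whole cocoa does beyond its fiber, whereas C10 and I differ in cocoa fiber as well. Each of the 8 arrays held 2 rats, 1 per dye. C10 shared arrays with REF and CF, and I with CF and REF, so that C10 was never hybridised beside I, nor CF beside REF. The tissue was a whole piece of colon, a mixture of epithelium, muscle and immune cells, in which fewer cells of a type and less RNA per cell cannot be told apart.

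Interferons are cytokines released when cells sense foreign nucleic acids or, for interferon gamma, by activated T and NK cells. Type I and type III interferons act through Janus kinases and target genes with interferon-stimulated response elements (ISRE), whereas interferon gamma acts on genes with gamma-activated sites (GAS). The target genes encode antiviral enzymes and GTPases, parts of the machinery that loads peptides on MHC class I, and chemokines that attract T cells. In the intestine a low level of this programme is known to be kept up by the microbiota.

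The region in front of the start site was examined in the RefSeq promoters of the rat assembly GRCr8, each 300 bases long with 250 bases before the start and 50 after. An entry was present for 27 of the 34 members. The ISRE core was searched as GAAANNGAAA and the GAS as TTCNNNGAA, on both strands. The ISRE core was present in 17 of the 27 member promoters (63.0 %) and in 3.92 % of all 33469 promoters. The GAS letters were present in 10 member promoters (37.0 %) and in 8.87 % of all. In 5 member promoters both were found, never overlapping, and in 5 neither was found. A match is only a run of letters in this window. The 250 bases before the start are shown for 5 of the members that have the ISRE core and whose values in every rat are given below. These are Isg20, Gbp2, Ifi27, Cxcl10 and Rsad2. Oas1a, Tap1 and Parp14 also meet this description and are not shown. Then follow Ifitm2 and Lgals3bp, a pair of further interferon targets described below. Capitals mark the ISRE core, which reads TTTC on its left where it lies on the opposite strand.

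Isg20 (GRCr8 chr1:142239809-142240058, plus strand, core 92 bases before the start): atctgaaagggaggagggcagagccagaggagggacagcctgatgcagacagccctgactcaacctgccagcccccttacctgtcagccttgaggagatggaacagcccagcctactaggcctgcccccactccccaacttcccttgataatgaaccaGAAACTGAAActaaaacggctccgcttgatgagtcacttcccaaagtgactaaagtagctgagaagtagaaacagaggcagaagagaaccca
Gbp2 (GRCr8 chr2:234005477-234005726, plus strand, core 31 bases before the start): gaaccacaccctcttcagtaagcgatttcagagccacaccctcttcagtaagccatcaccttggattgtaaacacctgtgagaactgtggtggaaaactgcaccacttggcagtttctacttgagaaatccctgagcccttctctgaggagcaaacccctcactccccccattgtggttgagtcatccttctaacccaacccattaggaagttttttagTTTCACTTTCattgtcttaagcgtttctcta
Ifi27 (GRCr8 chr6:128355062-128355311, plus strand, cores 169 and 84 bases before the start): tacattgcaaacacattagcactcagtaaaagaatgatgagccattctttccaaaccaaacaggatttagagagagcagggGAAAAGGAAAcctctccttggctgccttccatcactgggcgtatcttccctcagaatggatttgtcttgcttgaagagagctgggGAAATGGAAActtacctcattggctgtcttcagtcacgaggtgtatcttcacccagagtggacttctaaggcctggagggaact
Cxcl10 (GRCr8 chr14:15988816-15989065, plus strand, core 243 bases before the start): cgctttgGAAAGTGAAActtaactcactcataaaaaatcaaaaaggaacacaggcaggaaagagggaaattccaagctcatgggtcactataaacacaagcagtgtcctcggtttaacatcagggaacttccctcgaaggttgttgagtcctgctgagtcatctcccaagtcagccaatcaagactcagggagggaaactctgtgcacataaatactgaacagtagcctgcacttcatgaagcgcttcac
Rsad2 (GRCr8 chr6:48788121-48788370, minus strand, core 147 bases before the start): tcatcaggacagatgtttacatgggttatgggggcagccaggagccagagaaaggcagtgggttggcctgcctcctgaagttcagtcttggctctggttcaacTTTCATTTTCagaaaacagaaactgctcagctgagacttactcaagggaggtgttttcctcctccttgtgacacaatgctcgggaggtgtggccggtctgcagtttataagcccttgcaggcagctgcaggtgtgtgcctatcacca
Ifitm2 (GRCr8 chr1:205482349-205482598, minus strand, core 33 bases before the start): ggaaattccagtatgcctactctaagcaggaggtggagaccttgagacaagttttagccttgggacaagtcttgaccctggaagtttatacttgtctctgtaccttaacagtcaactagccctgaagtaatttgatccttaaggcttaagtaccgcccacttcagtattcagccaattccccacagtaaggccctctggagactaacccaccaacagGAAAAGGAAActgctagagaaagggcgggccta
Lgals3bp (GRCr8 chr10:104127849-104128098, minus strand, core 50 bases before the start): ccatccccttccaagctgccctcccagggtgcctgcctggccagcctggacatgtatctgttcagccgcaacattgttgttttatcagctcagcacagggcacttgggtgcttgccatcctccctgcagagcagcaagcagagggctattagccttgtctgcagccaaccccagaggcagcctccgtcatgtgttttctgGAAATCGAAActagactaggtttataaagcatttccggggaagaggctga

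Signals are given as normalised log2 intensity, and a log2 fold change (log2 FC) as the fitted difference between 2 diets with its standard error (SE). A gene passed the test at an adjusted p below 0.05 in limma, adjusted over all 19899 genes, and the unadjusted p is named as such. The fitted difference weighs rats on a shared array most, and it can differ from the plain difference of the means. Between 68.6 and 83.9 % of spots were well above background in a rat. Of the 32 members, 30 were well above background in all 16 rats, Ifit3 in 14 and Oas2 in 12. Ifit3 and Oas2 were so in at least 3 rats of every diet. The lowest signal well above background, the floor, lay between 5.83 and 6.21 depending on the channel. The means over 16 rats of Oas2 (6.43), Ifit3 (6.46) and Cxcl9 (6.66) lay close to it. Some rats stood apart by markers of cell types and of position. The mean of 5 smooth muscle genes in C10 rat 1 lay at -2.28 relative to the mean of all rats (log2), where the other 15 rats lay between -0.60 and 0.49. The mean of 8 T cell genes was highest in I rat 1 (1.42), CF rat 3 (1.42), C10 rat 1 (1.19) and REF rat 3 (0.96). The mean of 6 B cell genes was highest in the same rats. The mean of 4 Hox genes of the posterior colon was highest in C10 rat 4 (1.69) and lowest in REF rat 4 (-2.15).

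Against the REF group, 1 of the 32 interferon response genes passed the test, in the C10 group, and 0 did in the CF and I groups. In the C10 group 23 of the 32 members had a negative log2 FC against REF and 9 a positive one, with a median of -0.12, beside a median of 0.01 over all genes tested. Some markers of other cells were also lower in C10. Of 6 mast cell genes, 5 passed the test, with a median log2 FC of -0.94. The mean of the mast cell list ran from -1.11 to -0.51 in C10 rats and from 0.28 to 0.43 in REF rats. The 5 plasma cell genes tested had a median of -0.76 with 0 passing, and their mean was lowest in C10 rat 4 (-1.62), as was that of the interferon response genes (-0.38). Nkg7, a gene of cytotoxic cells, fell by 0.81 on the log2 scale (adjusted p = 0.016). It was the 1 call among 4 such genes tested, and their median log2 FC was 0.08. The mean of the 4, Nkg7 included, ran from -0.52 to 0.35 in C10 rats and from -0.31 to 0.08 in REF rats. The part of these cells in the members' values was not tested. The medians of the CF and I groups against the same REF rats were 0.00 (16 members positive) and 0.06 (20 positive), beside 0.01 over all genes in each. In C10, 1 member passed the test with a negative log2 FC, Isg20, where 0.97 % of all genes did so, and 0 members passed with a positive one, where 0.523 % of all genes did so. At an unadjusted p below 0.05, 7 members were lower in C10 than in REF, or 21.9 % of the 32, beside 9.01 % of all genes: Mx1, Isg20, Ifit2, Ifit3, Ifi27, Gbp2 and Cxcl11. At the same threshold 0 members were higher, beside 9.39 % of all genes.

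In the CF and I groups 0 members passed the test in limma, and 0 % of all genes did so in either comparison with REF. At an unadjusted p below 0.05, 3 members were higher in CF than in REF (Mx2, Gbp2 and Cxcl10), beside 3.49 % of all genes, and 0 were lower, beside 3.67 %. The I group had 2 members higher (Mx2 and Cxcl10) and 0 lower, beside 3.2 % of all genes in each direction. By rank product, a test on ranks that the study's methods name, the members called were Cxcl11 in C10 and Cxcl11 in CF, both lower, and 0 in I. Of all 19899 genes, rank product called 297 in C10, 134 in CF and 74 in I, in either direction.

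**Figure D1:**
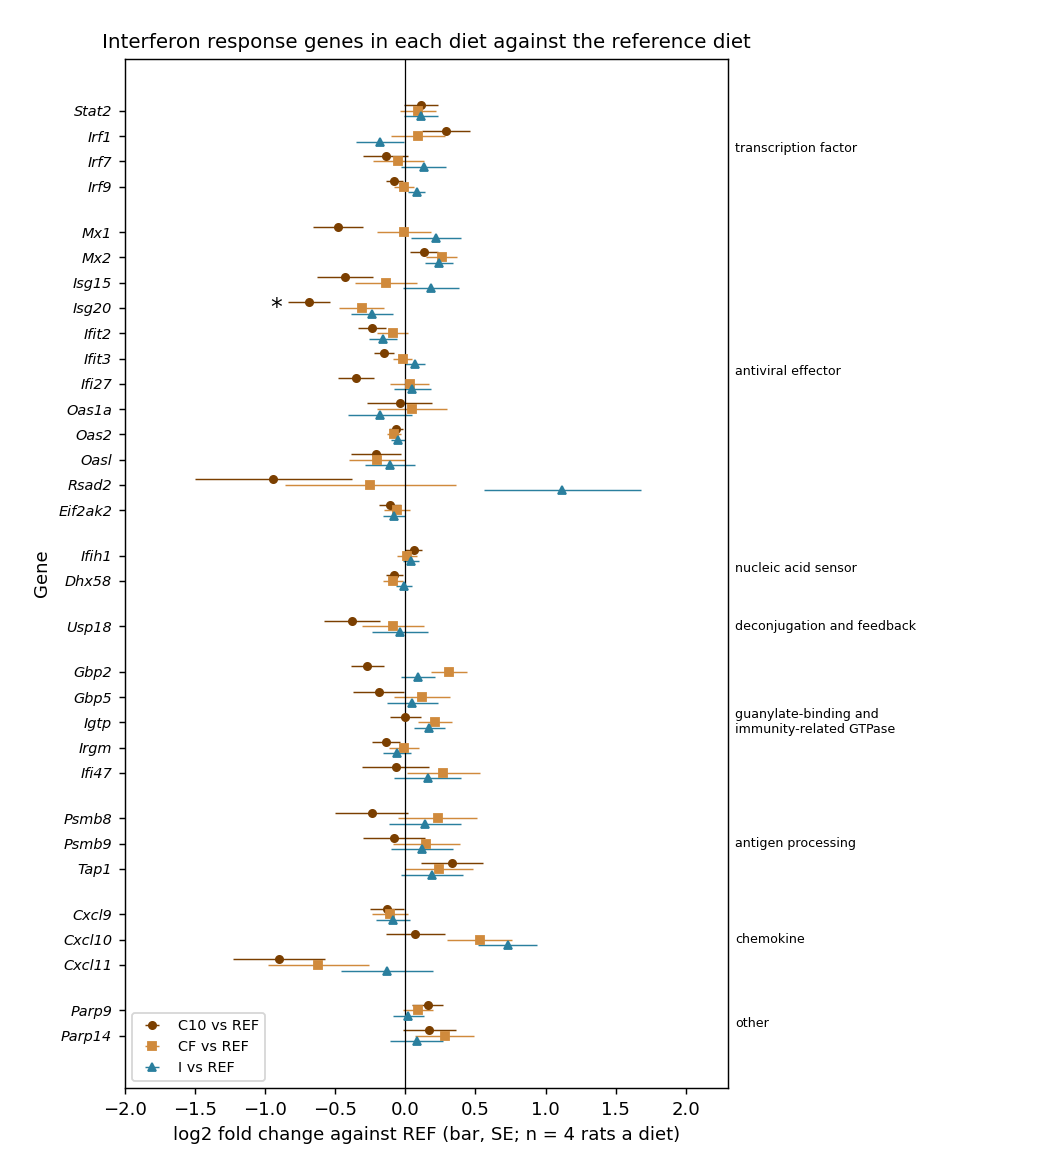
The log2 fold change of each of the 32 interferon response genes in the C10, CF and I groups against REF (points; bars, SE; n = 4 rats a diet), with genes grouped by role and an asterisk at the gene that passed the test in C10. Most C10 points of the antiviral effectors lie left of 0, and Rsad2 has the widest bars.

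Of the transcription factors, Irf1 had the second highest log2 FC of the members in C10. IRF1 is induced by interferon gamma and activates promoters with the ISRE core. In REF rats 1 to 4 Irf1 was 13.30, 12.99, 13.40 and 13.23, in C10 rats 13.82, 13.64, 13.04 and 13.28, in CF rats 13.25, 13.06, 13.06 and 13.57, and in I rats 13.57, 12.76, 13.05 and 12.82. C10 rats 1 and 2 were the highest of all 16, and C10 rat 3 lay below 3 of the 4 REF rats. Irf1 had a log2 FC of 0.29 in C10 (SE 0.17, adjusted p = 0.394), 0.09 in CF and -0.18 in I (adjusted p = 0.922), the last among the 3 lowest in I. A second probe of Irf1 gave 0.35, 0.01 and -0.07. Stat2 and Irf9, parts of the complex that binds the ISRE, had log2 FCs between -0.08 and 0.11 in all 3 diets. Irf7, the factor that amplifies type I interferon production, ranged from -0.14 in C10 to 0.13 in I, and its signal was lowest in C10 rat 3 (9.0).

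Of the 12 antiviral effectors, the role with the most members here, 11 had a log2 FC below 0 in the C10 group, with a median of -0.23. The exception was Mx2. In CF 9 of the 12 were below 0 (median -0.07), and in I 6 were (median 0.00).

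Isg20, an exonuclease that degrades viral RNA, was the member that passed the test against REF. Its signal was 11.42, 11.40, 10.97 and 11.48 in REF rats 1 to 4, and 10.75, 10.79, 10.81 and 10.36 in the C10 rats. It was 10.75, 11.51, 10.77 and 10.92 in the CF rats and 10.87, 11.26, 10.67 and 11.27 in the I rats. Every C10 rat lay below every REF rat, whereas CF and I rats spread over both ranges. In 2.02 % of all genes C10 lay below REF without overlap, and in 2.6 % above it. Isg20 fell by 0.69 on the log2 scale in C10 (SE 0.15, 1.61-fold, adjusted p = 0.0414; exact permutation p = 0.0286, two-sided, the smallest that 4 rats against 4 allow). The log2 FC was -0.31 in CF (adjusted p = 0.738) and -0.24 in I (adjusted p = 0.871). The call was close to the threshold: leaving out 1 rat at a time gave adjusted p between 0.0183 and 0.206, below 0.05 in 6 of 16 fits. The 6 rats with the highest Isg20 (CF rat 2, REF rats 4, 1 and 2, I rats 4 and 2) were the 6 with the lowest mean of the posterior Hox genes, -2.15 to -0.04. The cut at 6 rats was not set in advance, and the share of all genes for it was not counted. In the C10 rats the posterior mean lay between 0.11 and 1.69. A fit with the T cell and posterior means as terms was added after the values were seen. In it the log2 FC of Isg20 was -0.40 (adjusted p = 0.105 in limma). The posterior genes had a median log2 FC of 0.99 in C10 against REF, with 0 of 4 passing the test. The paper lists Hoxd13, Hoxd10 and Hoxb13 among the genes raised by its cocoa diet. Diet and position therefore cannot be told apart in this fit.

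Rsad2 (viperin), an enzyme that makes a chain-terminating nucleotide, differed most between rats of one diet, with an SD within diets of 1.13. Its signal was 9.23, 9.51, 7.57 and 9.88 in the REF rats, 8.06, 9.19, 8.61 and 7.62 in the C10 rats, 9.34, 10.30, 7.38 and 7.17 in the CF rats, and 9.33, 9.48, 8.61 and 11.25 in the I rats. The 4 diets overlapped, with I rat 4 the highest and CF rat 4 the lowest. The log2 FC was -0.94 in C10 (SE 0.56, adjusted p = 0.403), -0.25 in CF (adjusted p = 0.962) and 1.12 in I (SE 0.56, adjusted p = 0.808), where the plain difference of the means was 0.62. The 5 rats with the highest Rsad2 were those with the 5 lowest means of the posterior Hox genes. With the added terms, which cannot separate diet from position, the log2 FC of C10 was -0.10.

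Mx1 and Mx2 encode dynamin-like GTPases that block viral replication, and they were on opposite sides of 0 in C10. Mx1 was 11.05, 10.28, 10.94 and 10.66 in the REF rats and 10.74, 9.79, 10.28 and 10.02 in the C10 rats. C10 rats 2 and 4 lay below all 4 REF rats, and C10 rat 1 within their range. The log2 FC of Mx1 was -0.48 (SE 0.18, unadjusted p = 0.0166 in limma, adjusted p = 0.169), beside -0.01 in CF and 0.22 in I. Mx2 was 14.01, 13.75, 13.66 and 13.79 in the REF rats, 14.15, 13.81, 14.18 and 13.69 in the C10 rats, 14.23, 13.99, 13.96 and 13.92 in the CF rats, and 13.71, 14.14, 14.10 and 14.01 in the I rats. Only REF rat 1 lay above any CF rat, and 3 of the 4 I rats were at or above the highest REF rat. The log2 FC of Mx2 was 0.13 in C10, 0.26 in CF (SE 0.11, adjusted p = 0.686) and 0.24 in I (SE 0.10, adjusted p = 0.774).

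Ifi27, a mitochondrial protein of the interferon response, was 13.96, 13.49, 14.29 and 13.86 in the REF rats, 13.64, 13.43, 13.82 and 13.38 in the C10 rats, 14.03, 14.06, 14.23 and 13.93 in the CF rats, and 14.23, 14.40, 13.74 and 13.88 in the I rats. All C10 rats lay below all CF rats, but not below all REF rats, since REF rat 2 was low. The log2 FC against REF was -0.35 (SE 0.13, adjusted p = 0.169). Ifit2 and Ifit3 are of the family of interferon-induced proteins with tetratricopeptide repeats. They had log2 FCs of -0.24 (SE 0.10, adjusted p = 0.202) and -0.15 (SE 0.07, adjusted p = 0.254) in C10. Ifit3 lay near the floor. Over the alternative settings its log2 FC in C10 ran from -0.63 to -0.09, with adjusted p of at least 0.087 in limma. Isg15, a ubiquitin-like modifier, had -0.43 (SE 0.20, adjusted p = 0.272).

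The oligoadenylate synthetases Oas1a and Oas2, which activate RNase L on double-stranded RNA, gave log2 FCs of -0.04 and -0.07 in C10. Oasl, a synthetase-like relative, gave -0.21. Oas1a was 9.35, 9.56, 8.92 and 7.91 in the C10 rats, and 9.32, 8.80, 9.02 and 9.26 in the REF rats. C10 rat 4 was the lowest of all 16 rats and C10 rat 2 the highest. In the CF rats Oas1a was 8.74, 9.24, 8.89 and 8.67, and in the I rats 8.69, 8.76, 8.59 and 9.04. The log2 FC was -0.18 in I (SE 0.23, adjusted p = 0.939), among the 3 lowest there, and 0.05 in CF, where the plain difference of the means was -0.22. Eif2ak2 (PKR), the kinase that stops translation on double-stranded RNA, had -0.11 in C10, and its dimmer probe gave 0.07. Its probes also differed in sign in CF and I.

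**Figure D2:**
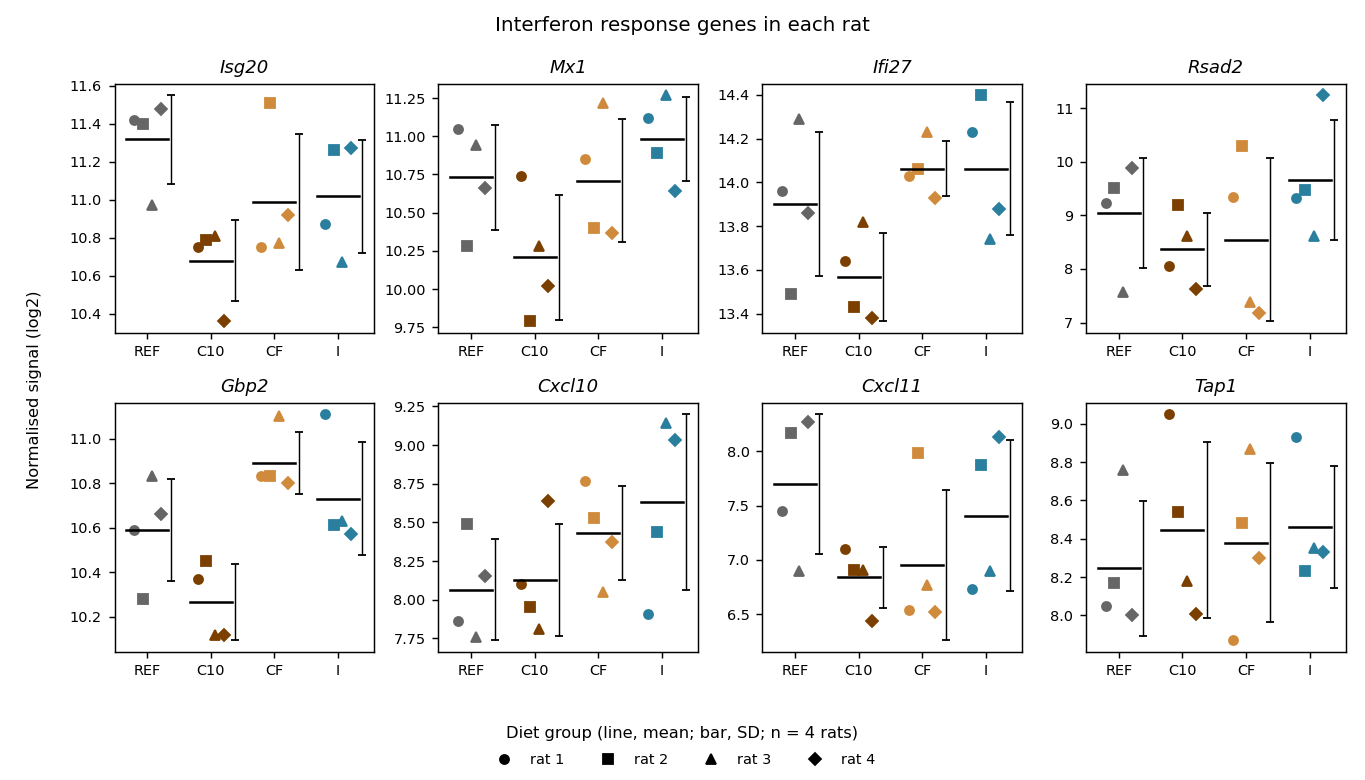
Normalised signal (log2) of 8 interferon response genes in each rat by diet (marker shapes, rats 1 to 4; line, mean; bar, SD; n = 4 rats). The C10 rats lie below all REF rats in Isg20 and below all CF and I rats in Gbp2, and the spread of Rsad2 and Cxcl11 within a diet is wide.

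The RNA sensors Ifih1 (MDA5) and Dhx58 (LGP2) had log2 FCs between -0.09 and 0.06 in all 3 diets. Usp18 removes ISG15 from proteins and damps the type I receptor. Its log2 FC was -0.38 in C10 (SE 0.20, adjusted p = 0.342), and its dimmer probe gave -0.21. The lowest Usp18 signal was in C10 rat 4 (6.53) and the highest in I rat 1 (7.98).

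Gbp2, a guanylate-binding protein that attacks the membranes of intracellular bacteria, separated C10 from both fiber diets. It was 10.37, 10.45, 10.12 and 10.12 in the C10 rats and 10.59, 10.28, 10.83 and 10.66 in the REF rats. The CF rats had 10.83, 10.83, 11.10 and 10.80, and the I rats 11.11, 10.61, 10.63 and 10.57. The C10 rats lay below every CF and every I rat, and overlapped the REF rats through REF rat 2. Gbp2 was lower in C10 than in CF by a log2 FC of -0.58 (SE 0.12, 1.49-fold, adjusted p = 0.0496), with an exact permutation p of 0.0286. Against I the log2 FC was -0.37 (SE 0.13, adjusted p = 0.274) and against REF -0.27 (SE 0.12, adjusted p = 0.256). CF against REF gave 0.31 (adjusted p = 0.686), the second highest of the members in CF. The call was at the threshold: with 1 rat left out, adjusted p ran from 0.0207 to 0.208 and was below 0.05 in 5 of 16 fits. With the T cell and posterior means as terms the log2 FC was -0.57 (adjusted p = 0.0287).

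The other GTPases, Gbp5, Igtp, Irgm and Ifi47, had log2 FCs between -0.19 and 0.00 in C10 and between -0.01 and 0.27 in CF. A second probe of Gbp5 lay at 0.01 in C10 and at -0.06 in CF, opposite in sign to the brighter probe. A second probe of Igtp lay at -0.10 in C10.

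Antigen processing is represented by Psmb8 and Psmb9, subunits of the immunoproteasome, and Tap1, a subunit of the transporter that carries peptides to MHC class I. Tap1 had the highest log2 FC of the members in C10. It was 8.05, 8.17, 8.76 and 8.0 in the REF rats, 9.05, 8.54, 8.18 and 8.01 in the C10 rats, 7.87, 8.48, 8.87 and 8.30 in the CF rats, and 8.93, 8.23, 8.35 and 8.33 in the I rats. C10 rat 1, I rat 1, CF rat 3 and REF rat 3 were the 4 highest, 1 in each diet. Tap1 had log2 FCs of 0.33 in C10 (SE 0.22, adjusted p = 0.448), 0.24 in CF and 0.19 in I, and without C10 rat 1 that of C10 was 0.01 (0.11 without REF rat 1). Psmb8 and Psmb9 had -0.24 and -0.08 in C10, 0.23 and 0.15 in CF, and 0.14 and 0.12 in I, with adjusted p of at least 0.680.

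The chemokines Cxcl9, Cxcl10 and Cxcl11 are ligands of CXCR3, a receptor on activated T cells, and did not move together. Cxcl10 was 7.86, 8.49, 7.76 and 8.15 in the REF rats, 8.10, 7.95, 7.81 and 8.64 in the C10 rats, 8.77, 8.53, 8.05 and 8.37 in the CF rats, and 7.91, 8.44, 9.14 and 9.03 in the I rats. I rats 3 and 4 were the highest of all, while I rat 1 lay within the REF range. The log2 FC was 0.07 in C10, 0.53 in CF (SE 0.23, unadjusted p = 0.0358 and adjusted p = 0.686 in limma) and 0.73 in I (SE 0.21, unadjusted p = 0.00382 and adjusted p = 0.657 in limma), the highest of the members in CF and the second highest in I. Cxcl11 was 7.45, 8.17, 6.90 and 8.27 in the REF rats, 7.10, 6.91, 6.91 and 6.44 in the C10 rats, 6.54, 7.98, 6.77 and 6.52 in the CF rats, and 6.73, 7.87, 6.90 and 8.13 in the I rats. The signal fell into 5 rats at 7.87 or above and 11 at 7.45 or below. The 5 high rats (REF rats 2 and 4, CF rat 2, I rats 2 and 4) were those with the lowest means of the posterior Hox genes, and none was a C10 rat. The log2 FC of Cxcl11 was -0.90 in C10 (SE 0.33, adjusted p = 0.169), -0.62 in CF (adjusted p = 0.773) and -0.13 in I, and -0.23 in C10 with the added terms. Cxcl9 lay between -0.13 and -0.09.

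Parp9 and Parp14, ADP-ribosyltransferase family members of the macrodomain type, were above 0 in all 3 diets. Parp14 was 11.57, 11.18, 11.86 and 11.56 in the REF rats, 12.16, 11.68, 11.19 and 11.32 in the C10 rats, 11.60, 11.62, 12.08 and 11.34 in the CF rats, and 12.10, 11.09, 11.65 and 11.54 in the I rats. The diets overlapped, and C10 rat 1 was the highest. Parp14 had a log2 FC of 0.17 in C10 (SE 0.19, adjusted p = 0.677) and 0.28 in CF (SE 0.21, adjusted p = 0.837), and without C10 rat 1 that of C10 was -0.04.

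The same rats were compared between the experimental diets, so that these values share the C10 rats with the comparison against REF. Against CF the median log2 FC of the members in C10 was -0.13, with 25 of 32 below 0, beside a median of 0.00 over all genes. Gbp2 was the member that passed the test, lower in C10, where 0.553 % of all genes were, and 0 members were higher, where 0.126 % of all genes were. At an unadjusted p below 0.05, 5 members were lower (Mx1, Isg20, Ifi27, Gbp2 and Cxcl10), beside 7.63 % of all genes, and 0 higher, beside 6.74 %. Ifi27 and Gbp2 lay lower in C10 without overlap, as 1.84 % of all genes did, and 0 members lay higher, as 1.66 % did.

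Against I the median was -0.16, with 26 of 32 below 0, beside 0.01 over all genes. In limma 0 members passed the test, where 0.442 % of all genes were lower and 0.171 % higher. At an unadjusted p below 0.05, 9 members were lower in C10 than in I, or 28.1 %, beside 6.18 % of all genes: Irf9, Mx1, Isg15, Isg20, Ifit3, Ifi27, Rsad2, Gbp2 and Cxcl10. Irf1 was higher (log2 FC 0.47, adjusted p = 0.311), beside 6.7 % of all genes. The largest difference was that of Rsad2, -2.06 (SE 0.61, adjusted p = 0.157), where the plain difference of the means was -1.30. Rank product called Rsad2 here, among 232 of all 19899 genes. Mx1 followed among the antiviral effectors with -0.70 (SE 0.19, adjusted p = 0.131): its I rats had 11.12, 10.89, 11.27 and 10.64, all above C10 rats 2, 3 and 4 and 3 of them above C10 rat 1. Irf9 was 8.20, 8.13, 8.04 and 7.99 in C10 and 8.30, 8.32, 8.25 and 8.25 in I, without overlap but at a log2 FC of -0.16 (SE 0.07, adjusted p = 0.346). Irf9 and Gbp2 were the members lower without overlap, beside 2.36 % of all genes, and 0 were higher, beside 3.55 %. No array held a C10 rat beside an I rat, so that this difference was never measured within an array.

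Between CF and I 0 members passed the test in limma, where 0 % of all genes were called. At an unadjusted p below 0.05 Rsad2 was lower in CF (log2 FC -1.38, SE 0.56, adjusted p = 1), beside 1.38 % of all genes, and 0 members were higher, beside 1.93 %. Rank product called Rsad2, among 36 of all 19899 genes. The median over the members was -0.02.

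Of the 32 members, 9 had their highest signals in rats that a marker list also set apart, across the diets. In Stat2, Gbp5, Psmb8, Psmb9, Tap1, Parp9 and Parp14, 7 of the 32 members (21.9 %), the 4 highest rats were I rat 1, CF rat 3, C10 rat 1 and REF rat 3, the 4 with the highest mean of the T cell genes, as in 3.21 % of all genes. Psmb8 reached 12.13, 11.76, 11.44 and 11.64 in these rats and 11.37 at most in the others. In Rsad2 and Cxcl11 the 5 highest rats were the 5 with the lowest mean of the posterior Hox genes, as in 0.915 % of all genes. The cuts at 4 and 5 rats were not set in advance, so that these shares are a description and not a test. The T cell mean ran from -0.64 to 0.96 in REF, from -1.08 to 1.19 in C10, from -0.68 to 1.42 in CF and from -0.56 to 1.42 in I, and 0 of its 8 genes passed the test in C10. The posterior mean, over 4 Hox genes of 5 listed, ran from -2.15 to 0.35 in REF, from 0.11 to 1.69 in C10, from -1.09 to 0.72 in CF and from -0.92 to 0.18 in I. The part of cell composition and of the position of the piece in these patterns was not tested. The mean over all 32 members was lowest in C10 rat 4 (-0.38) and C10 rat 3 (-0.25), and lay between -0.15 and 0.20 in the other 14 rats.

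**Figure D3:**
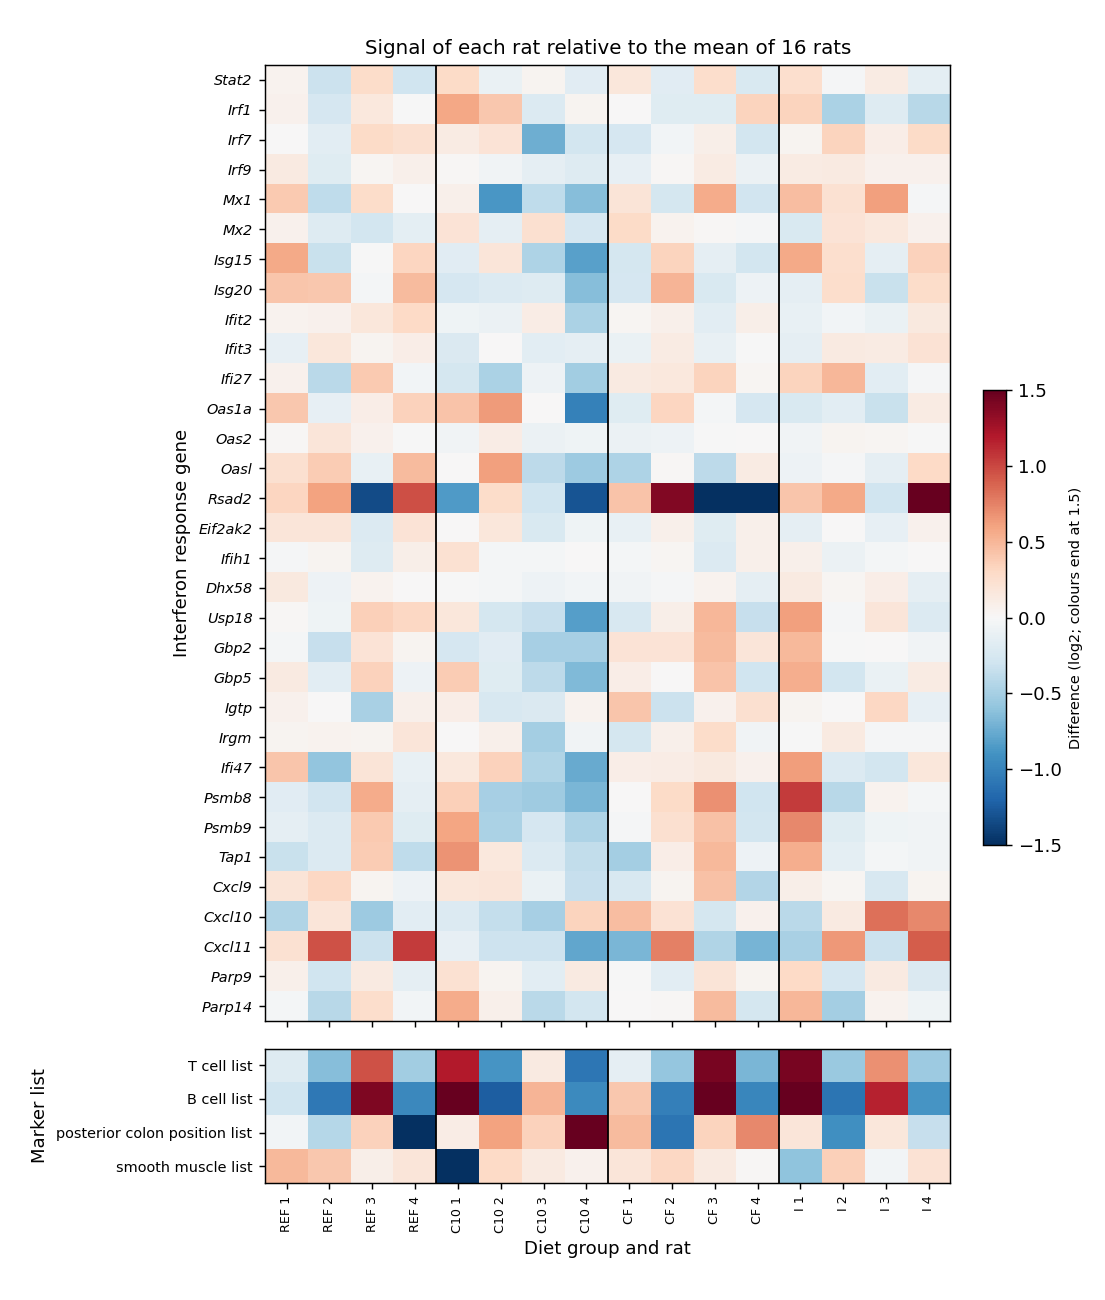
Signal of each of the 32 interferon response genes in each of the 16 rats relative to the mean of all rats (log2 difference, red higher, blue lower), with the means of 4 marker lists below. Psmb8, Psmb9 and Tap1 are highest in the same 4 rats as the T cell and B cell lists, and Rsad2 and Cxcl11 in rats with a low posterior list.

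Further genes of the pathway, from a list of 82 symbols some of which are older names of another, were tested where a probe passed the filter, which left 52. Of the others, 25 symbols matched no probe by accession, which does not say that the array lacks one, and 5 were below the filter. Among the 25 were Gbp1, which the paper lists as raised by its cocoa diet, and Slfn3, which it lists as lowered. Neither was tested here. Of the 52, 1 rose in C10 against REF, beside 0.523 % of all genes, and 1 fell, beside 0.97 %. In limma 0 passed the test in CF and in I. In C10, 3 were lower than in CF, beside 0.553 % of all genes, and 1 was lower than in I, beside 0.442 %. At an unadjusted p below 0.05 in limma, 5 were higher and 6 lower in C10, beside 9.39 % and 9.01 % of all genes. In CF 3 were higher, beside 3.49 %, and in I 4 were, beside 3.2 %, with 0 lower in either. The single ligand that passed the filter, Ifna4, had a log2 FC of 0.02 in C10. The 5 receptor chains had a median of 0.13 in C10, and 0 passed the test. The 27 further targets had a median of -0.10 in C10.

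Siglec1, a sialic acid receptor of macrophages that type I interferon induces, was the pathway gene with the clearest difference. It was 6.65, 6.89, 6.82 and 6.73 in the C10 rats, 7.46, 7.60, 7.53 and 7.80 in the REF rats, 8.0, 7.49, 7.84 and 7.48 in the CF rats, and 7.77, 7.71, 7.59 and 7.65 in the I rats. Every C10 rat lay below each of the other 12. Siglec1 fell by 0.83 in C10 against REF on the log2 scale (SE 0.10, 1.78-fold, adjusted p = 0.0022). C10 lay below REF without overlap, as in 2.02 % of all genes. The log2 FC of C10 was -0.91 against CF (adjusted p = 0.0016) and -0.89 against I (adjusted p = 0.00326). CF and I lay at 0.07 and 0.06 against REF. The paper lists Siglec1 among the genes lowered by its cocoa diet. All 16 fits with 1 rat left out kept the call against REF, with adjusted p up to 0.0152. Without C10 rats 1 and 4 together, which leaves 2 C10 rats, the log2 FC was -0.78 (adjusted p = 0.068). With log ratios within arrays the adjusted p was 0.17. The log2 FC was -1.38 with no normexp offset and -1.66 with the processed signals of the scanner software. The C10 mean of Siglec1 (6.77) lay not far above the floor. The mean of 8 macrophage genes lay between -0.71 and 0.10 in C10, between -0.13 and 0.18 in REF, between 0.05 and 0.28 in CF and between 0.02 and 0.21 in I. Of these 8 genes, 0 passed the test in C10 against REF, and 4 were lower at an unadjusted p below 0.05 in limma. The part of macrophage number in the Siglec1 value was not tested.

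Trim25, a ubiquitin ligase that activates the RNA sensor RIG-I, moved the other way. It was 11.79, 11.68, 11.17 and 11.62 in the REF rats and 12.18, 12.30, 12.05 and 11.80 in the C10 rats. All C10 rats lay above all REF rats, as in 2.6 % of all genes, but C10 rat 4 (11.80) barely above REF rat 1 (11.79). The CF rats (11.49 to 12.02) and I rats (11.65 to 11.99) overlapped the C10 rats. Trim25 rose by 0.52 in C10 against REF (SE 0.12, adjusted p = 0.042), beside 0.24 in CF and 0.27 in I. The call was kept in 4 of 16 fits with 1 rat left out, with adjusted p from 0.0316 to 0.196, and in 4 of 12 other settings. Ifitm2, a membrane protein that blocks viral entry, was 13.56, 13.67, 13.47 and 13.54 in C10 and 13.83, 14.03, 13.81 and 13.72 in CF, and was lower in C10 without overlap, by a log2 FC of -0.32 (SE 0.06, adjusted p = 0.0261). Lgals3bp, a secreted glycoprotein that binds galectin-3, was 11.46, 11.22, 10.73 and 10.75 in C10 and 11.70, 11.63, 11.92 and 11.60 in CF. Again all C10 rats lay below all CF rats, at a log2 FC of -0.69 (SE 0.14, adjusted p = 0.046). C10 lay below CF without overlap in 1.84 % of all genes. With 1 rat left out, the call of Ifitm2 was kept in 12 of 16 fits (adjusted p up to 0.139) and that of Lgals3bp in 6 of 16 (up to 0.19), and in 6 and 4 of 12 other settings. Against REF the log2 FC was -0.23 for Ifitm2 (adjusted p = 0.0612) and -0.38 for Lgals3bp (adjusted p = 0.174).

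**Figure D4:**
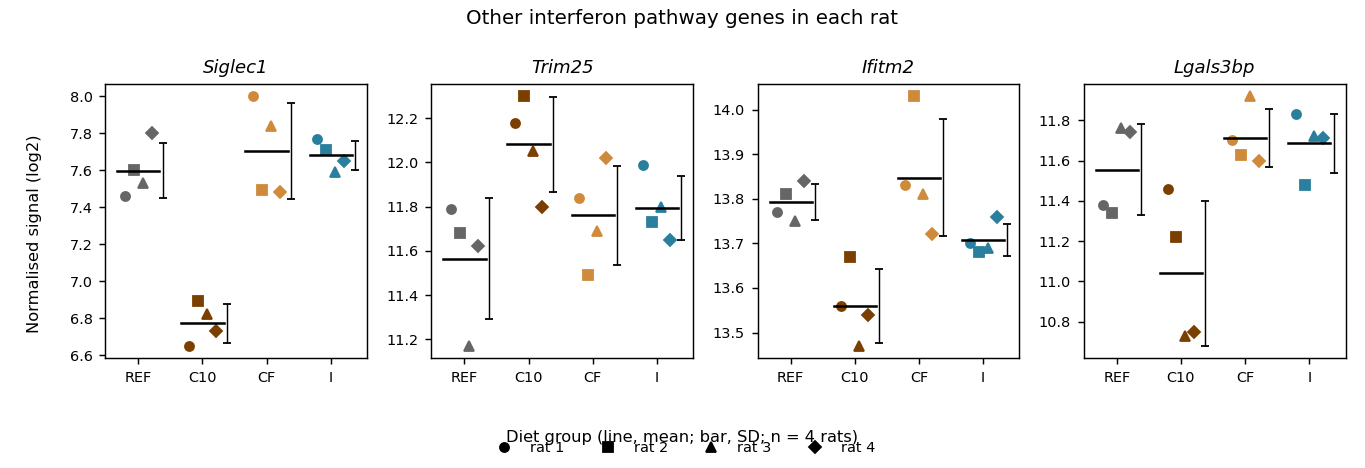
Normalised signal (log2) of Siglec1, Trim25, Ifitm2 and Lgals3bp in each rat by diet (marker shapes, rats 1 to 4; line, mean; bar, SD; n = 4 rats). The 4 C10 rats lie below all other rats in Siglec1 and above the REF rats in Trim25.

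Members were last split by their promoter letters. In C10 the 16 members tested with the ISRE core had a median log2 FC of -0.14, with 11 below 0, and the 10 with a promoter entry and no core had -0.08, with 7 below 0, a description with no test of the difference. In CF both medians were 0.04, and in I they were 0.08 and 0.05.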

How the data were processed

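RNA from the middle colon of 16 rats was hybridised on 8 two-colour arrays, and the sample labels gave the diet and dye of each rat. Per the labels the authors read the scans in Agilent Feature Extraction 10.7.3.1. Of the deposited columns, the median intensities of spot and background in both dyes were taken. A deposited table of normalized values was left out, since no label ties its 8 columns to rats. In limma 3.58.1 (R 4.3.3, statmod 1.5.0) intensities were corrected by normexp with an offset of 50, normalised within arrays by spatial loess (span 0.4) and loess (span 0.3) and between arrays by Aquantile, and put on the log2 scale. Control and outlier spots were left out, and spots of a probe were averaged. Probes well above background in at least 4 of 16 channels were kept (22537), and the brightest per gene was tested, 19899 genes in all. Each channel entered a linear model with diet and dye, the array as a block (correlation 0.476) and the Benjamini-Hochberg adjustment. The fit was checked on simulated data. Exact permutation tests compared 4 rats with 4. The number of arrays limits the precision. Rats of a diet were separate animals. The p-values of limma and of the exact test set a difference against the spread between rats. Rank product instead shuffled genes within each channel.

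The members and lists were chosen with earlier results of these data known. Values by rat are given for members with an adjusted p below 0.05 in any comparison, for those whose rats of a diet did not overlap the REF rats, and for the 3 highest and 3 lowest log2 fold changes of each diet against REF. Mx1, Ifi27, Irf9 and Psmb8 were added after their values were seen. Pathway genes were named at an adjusted p below 0.05. Promoters came from RefSeq (GRCr8). Alternatives changed the background correction, normalization, filter, probe rule, dye term, model and rats.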

Additional observations from a re-analysis of the deposited data

Results flagged for a closer look

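In 4 groups of 4 rats the highest or lowest signal of a described gene lay far from the other 3 by the gap to the nearest of them relative to the range of the group (Dixon's test). Isg20 was 10.97 in REF rat 3, where the nearest REF rat had 11.40 (gap 0.843 of the range), and 10.36 in C10 rat 4, where the nearest C10 rat had 10.75 (0.867). Gbp2 was 11.10 in CF rat 3, beside 10.83 (0.900), and 11.11 in I rat 1, beside 10.63 (0.889). Of the 84 groups examined, chance alone gives such a gap in about 1 in 20.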

How the results depend on the processing

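The count of members that passed the test was the least stable value. In C10 against REF it was 1 (Isg20), and it was 0 with no normexp offset, with the processed signals of the scanner software, with no normalization between arrays, with no filter on dim probes, with no dye term, with log ratios within arrays and with at least 2-fold change asked as well. In C10 against CF it was 1 (Gbp2), and it was 0 under each of these, with quantile normalization, with loess alone, with a term for arrays 1 to 4 against 5 to 8 and by rank product. In C10 against I it rose from 0 to 1 with no normalization between arrays (Mx1) and by rank product (Rsad2). Rank product also gave 1 in CF against REF (Cxcl11) and 1 in CF against I (Rsad2). A pair of alternatives was chosen after seeing the data: leaving out C10 rats 1 and 4 together gave 0 in C10 against REF and against CF, and T cell and posterior position means as terms gave 0 in C10 against REF. With 1 rat left out, the counts ran from 0 to 1 in C10 against REF, CF and I. Parp14 in C10 ran from -0.04 (without C10 rat 1) to 0.29, Rsad2 in CF from -0.85 to 0.25 (without CF rat 3), and Oas1a in I from -0.26 to 0.03 (without REF rat 4). Rsad2 in CF was also 0.02 with log ratios within arrays and 0.20 with the added terms. Over all genes, the 297 calls of C10 against REF became 422 with no normalization between arrays, 70 with no dye term, 29 without C10 rats 1 and 4 and 0 with log ratios. The 135 calls against CF became 22, 16 and 0 under the last 3, and the 122 against I became 62, 21 and 0. With the T cell and posterior means as terms the 3 counts were 182, 398 and 210. With 1 rat left out, the median over the members ran from -0.23 to -0.06 in C10 against REF, from -0.03 to 0.05 in CF, from -0.03 (without I rat 1) to 0.11 in I, from -0.19 to -0.03 in C10 against CF and from -0.19 to -0.08 in C10 against I, beside an SD of the member mean between rats of a diet of 0.137. The causes were not tested. The rat numbers 1 to 4 recur in every diet, and a shared number was not taken as a pairing. The array was the pairing: it was a block in the reported fit, and log ratios within arrays gave 0 members in every comparison.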
